A study of Mus musculus with 20 samples.

Results

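Astrocyte clearance of glutamate and GABA was described with 9 genes out of the 39017 in the counts table. The genes were chosen by symbol from what their products do, but with earlier results of these data known. They were the glutamate transporters Slc1a2 and Slc1a3, the glutamine exporter Slc38a3, glutamine synthetase (Glul) and glutamate dehydrogenase (Glud1). The others were the GABA transporter Slc6a11, GABA transaminase (Abat), the glutamate receptor Grm3 and the neutral amino acid transporter Slc7a10. All 9 were found in the table, and all 9 passed the filter on low counts in every comparison. Cells came from the left forebrain of adult male C57BL/6J mice 7 days after lateral fluid percussion injury (FPI), in which a brief pulse of fluid strikes the exposed dura, or after sham surgery. Sham mice had the craniectomy, anesthesia and connection to the device without the pulse, so the comparison is of the pulse on top of surgery. Microglia were sorted as CD11b+ cells of intermediate CD45 and astrocytes as ACSA-2+ cells, with 5 libraries for sham microglia, FPI microglia, sham astrocytes and FPI astrocytes each, 20 in all. Each library was made from 1 cell type of 1 animal, with no pooling. The question was whether astrocyte transmitter handling changes after FPI, with microglia as the reference cell type.

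Glutamate released at synapses is taken up mainly by astrocytes, through the transporters GLT-1 (Slc1a2) and GLAST (Slc1a3), which couple uptake to the sodium gradient kept by the sodium pump. Inside the astrocyte, glutamine synthetase turns glutamate into glutamine, which leaves through SNAT3 (Slc38a3) and returns to neurons, while glutamate dehydrogenase passes glutamate into the citric acid cycle. GABA enters through GAT-3 (Slc6a11) and is broken down by GABA transaminase, and loss of glutamate uptake is a known route to excitotoxic injury.

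Libraries held 6470553 to 10917112 counts in astrocytes and 5623349 to 13110857 in microglia. The labelled cell types matched their astrocyte and microglia markers. The summed level of 10 astrocyte markers was 3572 to 12930 CPM (counts scaled to library size, on 1 scale for all 20 libraries) in astrocytes and 42.2 to 147.9 CPM in microglia, and 10 microglia markers summed to 22261 to 36575 CPM in microglia and 32.6 to 210.9 CPM in astrocytes. Astrocyte replicates 4 and 5 of both conditions stood apart from replicates 1 to 3: their astrocyte markers summed to 3572 to 5256 CPM against 7731 to 12930 CPM, and their oligodendrocyte precursor markers to 680 to 1365 CPM against 289 to 522 CPM. FPI astrocyte library 5 was taken as an astrocyte library, as its title and cell type label give it, although its file label ends like those of the microglia and repeats the animal of FPI astrocyte library 2. The astrocyte libraries also held oligodendrocyte RNA: 7 oligodendrocyte markers summed to 1667 to 17879 CPM in sham and 3244 to 11268 CPM in FPI astrocytes. This was above the astrocyte markers in sham library 4 (17879 against 3572 CPM) and below them in sham library 3 (1667 against 11066 CPM). In bulk libraries fewer astrocytes in a sort and less of a transcript per astrocyte cannot be told apart.

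Per kilobase of exon, the most abundant of these transcripts in sham astrocytes were the transporter Slc1a2, at 851 ± 300.2 CPM per kb (mean ± SD, n = 5), and Glul, at 814 ± 262 CPM per kb. Slc1a3 followed at 441 ± 192 CPM per kb and Slc6a11 at 230 ± 150 CPM per kb, in units that allow comparison between genes. Grm3 (174 ± 31.4), Slc7a10 (170 ± 88.6) and Glud1 (154 ± 54.1 CPM per kb) lay close together. The least abundant per kb were Slc38a3, at 61.6 ± 30.7, and Abat, at 31.0 ± 11.6 CPM per kb. The ranges of all 8 pairs of neighbours in this order overlapped in sham astrocytes, and 7 of 8 overlapped in FPI astrocytes, where only Slc7a10 and Slc38a3 were separate. Lengths were the union of GENCODE exons, which counts a long 3′ end in full, and Slc1a2 had the longest, 13133 bases.

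The genes lay on 9 different chromosomes of GRCm38. Slc1a2 was at chr2:102658659-102790784, Slc1a3 at chr15:8634124-8710764 and Glul at chr1:153899944-153909723. Slc6a11 was at chr6:114131241-114249952, Slc38a3 at chr9:107650634-107669530 and Glud1 at chr14:34310727-34345265. Abat was at chr16:8513429-8621568, Grm3 at chr5:9485541-9725170 and Slc7a10 at chr7:35186385-35201114, so no members were neighbours. Slc7a10 shares 377 exonic bases (17.9% of its exons) with Lrp3 on the other strand, and the strand setting of the counting was not given in the sources used here. Lrp3 had 1625 reads in astrocytes against 28876 for Slc7a10.

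Promoter sequence was looked up because the members moved together across astrocyte libraries, and 7 of the 9 had an entry in the RefSeq promoter table (GRCm38.p6). Slc38a3 and Abat had none. The 250 bases before the start are shown 5′ to 3′ for the 2 glutamate transporters, the most abundant carriers, and for Slc6a11, the member with the widest spread between astrocyte libraries. Capitals mark matches to a TATA box (TATAAA) or to the STAT-type motif TTCNNNGAA on either strand. The windows are chr2:102706188-102706437 (plus strand), chr15:8710808-8711057 (minus strand) and chr6:114130991-114131240 (plus strand), and that of Slc1a2 lies inside the GENCODE gene, downstream of its outermost start.
Slc1a2: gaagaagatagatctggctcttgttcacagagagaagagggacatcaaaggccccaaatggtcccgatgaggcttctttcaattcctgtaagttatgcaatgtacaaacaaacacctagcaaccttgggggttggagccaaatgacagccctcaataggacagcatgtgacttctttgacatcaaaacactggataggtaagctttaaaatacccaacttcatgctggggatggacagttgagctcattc
Slc1a3: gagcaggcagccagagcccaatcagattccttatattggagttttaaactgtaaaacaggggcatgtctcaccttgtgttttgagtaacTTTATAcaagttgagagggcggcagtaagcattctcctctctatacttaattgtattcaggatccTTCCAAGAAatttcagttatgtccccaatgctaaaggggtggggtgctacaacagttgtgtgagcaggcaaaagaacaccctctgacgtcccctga
Slc6a11: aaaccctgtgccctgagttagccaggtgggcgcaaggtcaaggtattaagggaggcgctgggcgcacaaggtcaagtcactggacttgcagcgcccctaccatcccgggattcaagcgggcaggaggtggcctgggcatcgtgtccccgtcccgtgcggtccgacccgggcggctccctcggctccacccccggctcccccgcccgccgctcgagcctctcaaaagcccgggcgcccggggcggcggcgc
The windows of the 2 glutamate transporters were each 44.8% G and C, below the median of 52.4% over 32851 promoters, with 1 CG dinucleotide for Slc1a2 and 2 for Slc1a3. Slc6a11 had 71.2% G and C and 25 CG dinucleotides. The window of Glud1, not shown, was the highest of the 7 matched members, with 82% G and C and 46 CG dinucleotides. TATAAA was found in 12.4% of all windows and TTCNNNGAA in 7.02%, and of the 7 matched members only Slc1a3 held either. The half-site of nuclear factor I (TTGGCA, 12.3% of windows) was in no member, and the RBPJ motif GTGGGAA (5.42%) was in Grm3 alone. The motifs do not overlap one another in these windows, and a match is a description, not a binding site.

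No change of any of the 9 genes was detected in astrocytes after FPI. All 9 fitted changes were below 0 on the log2 scale, from -0.49 for Slc6a11 to -0.046 for Slc1a2, and every 95% interval included 0. In the same fit Gfap, the intermediate filament of reactive astrocytes, stood at 1.98 (SE 0.337, 95% interval 1.25 to 2.71), or 3.95-fold (95% interval 2.38 to 6.56), with an adjusted p of 0.151 in edgeR's quasi-likelihood test. Vim, another intermediate filament, stood at 1.24 (SE 0.324, 95% interval 0.54 to 1.94). Neither was called in edgeR, although both intervals lay above 0, and both were called in DESeq2, at adjusted p of 9.07e-06 for Gfap and 0.0978 for Vim.

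Slc1a2, the main glutamate transporter of the forebrain, was at 16213, 12327, 12436, 5688 and 9228 CPM in sham astrocyte libraries 1 to 5 and at 18459, 9958, 10353, 6270 and 7847 CPM in FPI libraries 1 to 5. The highest library was FPI library 1 and the lowest sham library 4, so the groups overlapped over most of their range. The log2 fold change was -0.046 (SE 0.380, 95% interval -0.87 to 0.78), or 0.969-fold (95% interval 0.547 to 1.72).

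Slc1a3, the transporter that also marks radial and cerebellar glia, was at 5247, 5010, 4538, 1663 and 2357 CPM in sham and 4492, 3501, 2978, 1772 and 2408 CPM in FPI libraries 1 to 5. Sham libraries 1 to 3 were above every FPI library, while sham libraries 4 and 5 were below FPI libraries 1 to 3. The log2 fold change was -0.28 (SE 0.368, 95% interval -1.08 to 0.52), or 0.825-fold (95% interval 0.474 to 1.44).

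Glul, which makes glutamine from glutamate and ammonia, was at 3993, 3153, 2466, 2001 and 1920 CPM in sham and 3484, 2779, 2168, 1828 and 1683 CPM in FPI libraries. In each group libraries 4 and 5 were the lowest. The log2 fold change was -0.15 (SE 0.292, 95% interval -0.78 to 0.49). Glud1, the mitochondrial enzyme that opens the oxidative route for glutamate, was at 908, 798, 693, 336 and 513 CPM in sham and 877, 596, 607, 398 and 526 CPM in FPI libraries. It gave a log2 fold change of -0.080 (SE 0.290, 95% interval -0.71 to 0.55), with every FPI library inside the sham range. For both fates of glutamate in the astrocyte, amidation and oxidation, the interval spanned 0.

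Slc38a3, which carries glutamine out of the astrocyte, was at 498, 383, 433, 120.1 and 191 CPM in sham and 316, 233, 294, 179 and 162 CPM in FPI libraries. Sham libraries 1 to 3 were above all 5 FPI libraries, sham library 4 was the lowest of the 10, and sham library 5 lay within the FPI range. The log2 fold change was -0.43 (SE 0.359, 95% interval -1.21 to 0.35), or 0.744-fold (95% interval 0.434 to 1.28). Without sham library 4 it was -0.64, with an interval that excluded 0 (-1.27 to -0.0059), and without sham library 1 it was -0.25. It was called in neither fit.

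Slc6a11, which takes up GABA, was at 2036, 1141, 1795, 355 and 475 CPM in sham and 1425, 946, 900.3, 397 and 356 CPM in FPI libraries. The highest library held 5.73 times the lowest, the widest spread of the 9 members, and that spread followed the replicate number rather than the condition. Its log2 fold change, -0.49 (SE 0.517, 95% interval -1.62 to 0.63), had the widest interval of the members. It moved to -0.83 without FPI library 1 and to -0.22 without sham library 1. Abat, which breaks GABA down in mitochondria, was at 328, 242, 329, 129 and 174 CPM in sham and 303, 213, 250.4, 135 and 166 CPM in FPI libraries. It gave -0.14 (SE 0.297, 95% interval -0.79 to 0.51), with every FPI library inside the sham range.

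Slc7a10, a carrier of small neutral amino acids such as serine and glycine, was at 556, 430.5, 485, 132 and 189 CPM in sham and 459, 343, 352, 163 and 147 CPM in FPI libraries. Only libraries 4 and 5 of each group fell below 200 CPM, and the log2 fold change was -0.26 (SE 0.426, 95% interval -1.18 to 0.67). Grm3, the main metabotropic glutamate receptor of adult astrocytes, was at 667, 563.1, 538, 474 and 413 CPM in sham and 591, 482, 399.6, 365 and 342 CPM in FPI libraries. It varied least, 1.95-fold from the lowest to the highest library, and gave -0.25 (SE 0.209, 95% interval -0.71 to 0.20), the narrowest interval of the 9.

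None of the 9 members was called at an adjusted p below 0.1 and an absolute log2 fold change above 0.6, against 0.00728% of the 13741 genes tested in astrocytes (1 gene). None had an unadjusted p below 0.05 either: p ran from 0.252 for Grm3 to 0.906 for Slc1a2, and adjusted p was 0.999 for each in edgeR. DESeq2, which called 0.217% of the 17994 genes it gave an adjusted p in astrocytes, also called 0 of 9. The median of the members was -0.25, beside -0.0052 over all tested genes and -0.30 over the 10 astrocyte markers, of which 8 were below 0. The members rise and fall together from library to library, so 9 signs are not 9 separate observations. For a decrease, the intervals reached as far as -0.71 for Grm3 and Glud1 and -1.62 for Slc6a11, and decreases up to those bounds could not be told from 0 with 5 libraries a group.

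**Figure D1:**
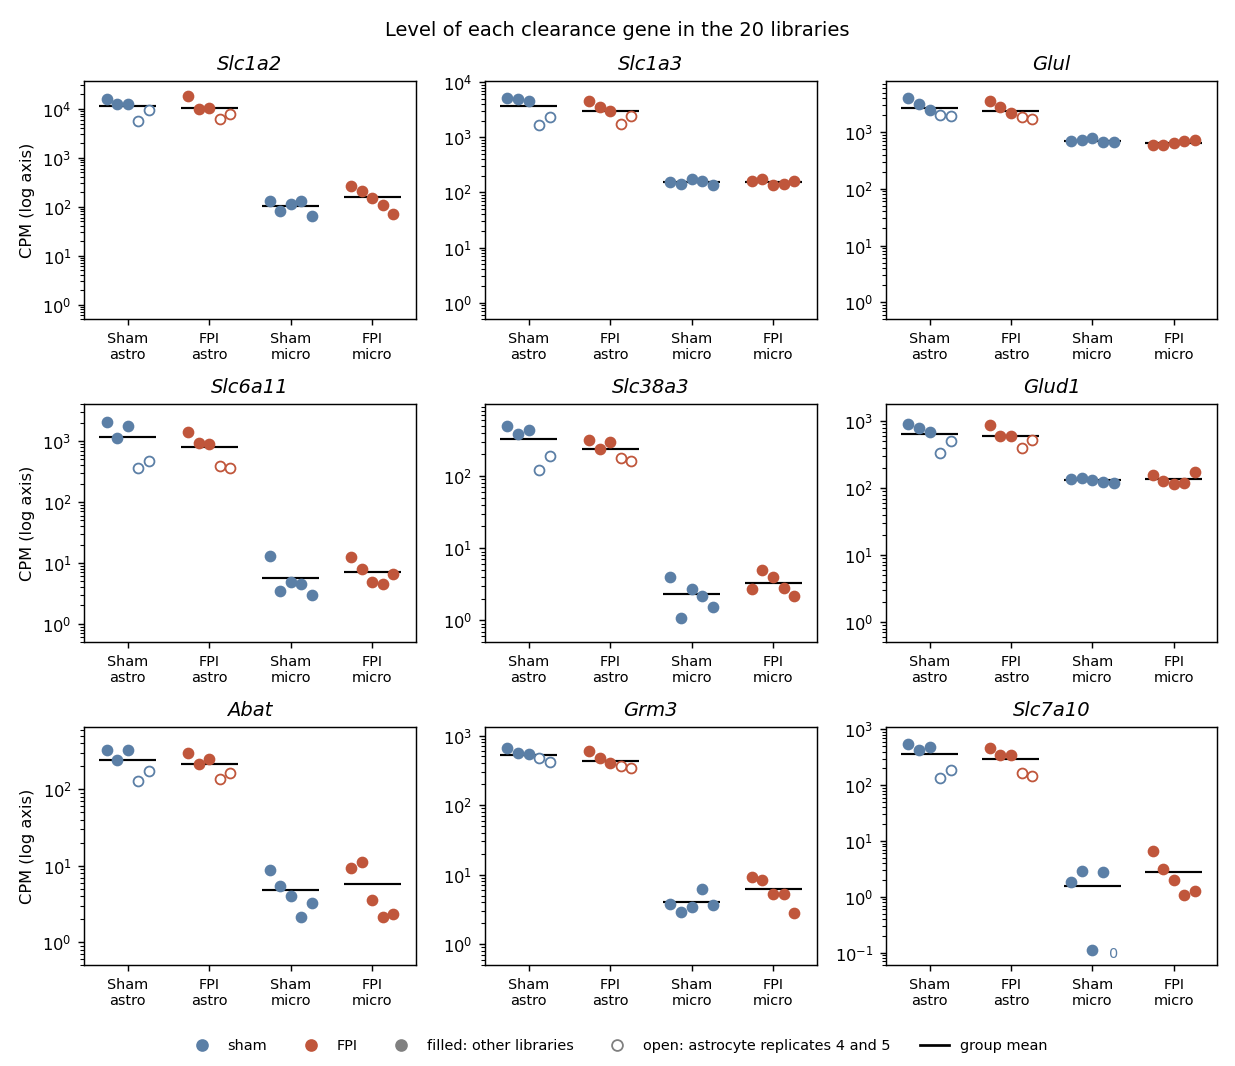
Level of each of the 9 genes in every library, in CPM on a log axis, for sham (blue) and FPI (red) astrocytes and microglia. Black lines are group means, open symbols are astrocyte replicates 4 and 5, and a printed 0 marks a library with no reads. Sham and FPI overlap in every panel, which does not show that a gene was unchanged. Astrocyte replicates 4 and 5 lie low in both conditions, and microglia lie far below astrocytes for most genes.

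For every member the gap between astrocyte replicate numbers was wider than that between conditions, a pattern found after the values were seen and described without a test. All 4 libraries of replicates 4 and 5 were below all 6 of replicates 1 to 3 for 8 of the 9 members, for 10 of 10 astrocyte markers, and for 5.57% of the 13741 tested genes. Grm3 was the exception, with sham library 4 above FPI library 3. The mean of replicates 4 and 5 was 28.8% of that of replicates 1 to 3 for Slc6a11 and 36.0% for Slc7a10. It was 45.4% for Slc38a3, 47.7% for Slc1a3, 54.3% for Abat and 54.6% for Slc1a2. Glud1 was at 59.4%, Glul at 61.8% and Grm3 at 73.8%, so GABA uptake and small amino acid transport were at the low end and the receptor at the high end. The sodium pump subunits that power uptake summed to 8927 to 14492 CPM in replicates 1 to 3 and 5643 to 8193 CPM in replicates 4 and 5. The labels give no batch for these numbers, and the part of the lower astrocyte marker level and the higher oligodendrocyte precursor marker level in the members' values was not tested.

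With a term for replicates 4 and 5 in the fit, an alternative chosen after seeing the data, the intervals narrowed and still included 0 for all 9 genes: Slc6a11 gave -0.42 (95% interval -0.89 to 0.049) and Grm3 -0.29 (-0.62 to 0.047). Within replicates 1 to 3, Slc38a3 gave -0.60 (95% interval -1.06 to -0.15), with an adjusted p of 0.672 in edgeR. Within replicates 4 and 5 it gave 0.13 (95% interval -0.66 to 0.93). No member was called in either subset.

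When each member was divided by the geometric mean of the 10 astrocyte markers in the same library, the spread between libraries shrank for 7 members and grew for Glul, from 2.37-fold to 2.41-fold, and Grm3, from 1.95-fold to 2.61-fold. Slc1a3 was the most constant: the ratio was 6.50 ± 0.27 in sham and 6.16 ± 0.52 in FPI libraries (mean ± SD, n = 5 libraries each, with 4 FPI animals by the library names), and the highest of 10 libraries was 1.24 times the lowest, against 3.15 times in CPM. For Slc38a3 the ratio of highest to lowest shrank from 4.15 to 1.43, for Slc7a10 from 4.20 to 1.57 and for Slc1a2 from 3.25 to 1.57. Glud1 and Abat each reached 1.59. Slc6a11 kept a 2.41-fold spread, with replicates 4 and 5 at 0.646 of replicates 1 to 3, and so was lower there than the markers were. Grm3 and Glul went the other way, with replicates 4 and 5 at 1.66 and 1.38 times replicates 1 to 3 per unit of marker. Sham library 4 was the highest for Grm3, at 1.92, against 0.734 to 0.793 in sham libraries 1 to 3. Sham and FPI ratios overlapped for all 9 genes, but overlap of 5 and 5 libraries does not show that a gene was unchanged.

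**Figure D2:**
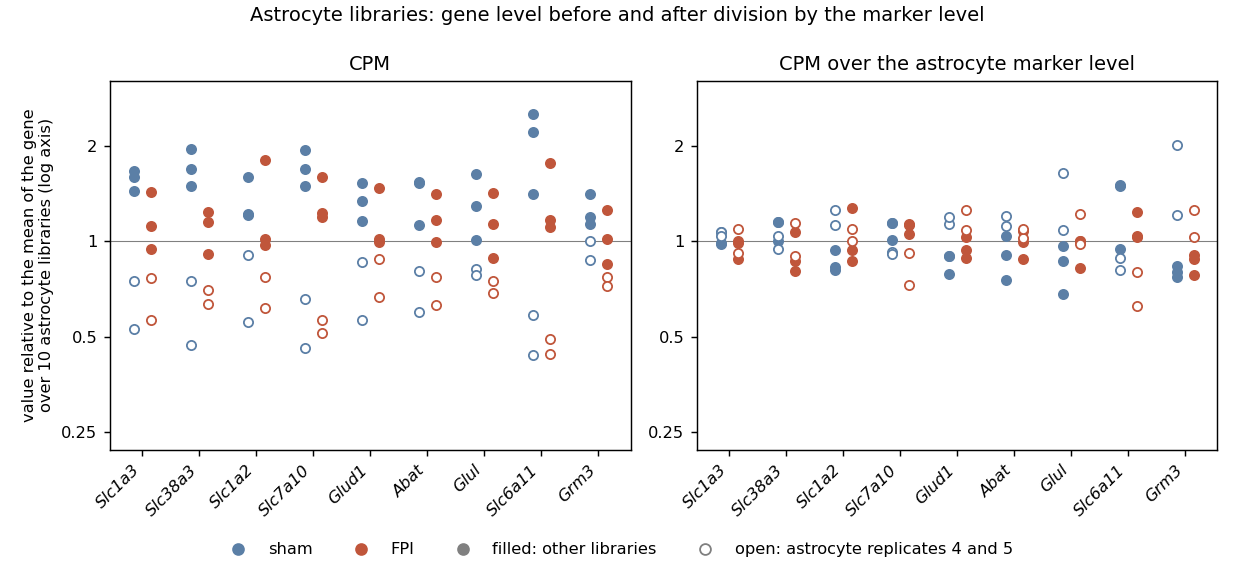
The 10 astrocyte libraries for each gene, as CPM (left) and as CPM divided by the geometric mean of 10 astrocyte markers in that library (right). Each value is relative to the geometric mean of the gene over the 10 libraries, on a log2 axis, with open symbols for replicates 4 and 5. Dividing by the markers draws Slc1a3 into a 1.24-fold range, leaves Slc6a11 low in replicates 4 and 5, and puts those replicates of Grm3 and Glul higher on average.

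Of 43 other genes of the pathway, 42 were in the table, and 40 were tested in astrocytes. None was called, by edgeR or by DESeq2, with 16 above 0 and 24 below and a median of -0.11. The other glutamate and neutral amino acid carriers had 4 of 5 below 0 (median -0.17), the receptors 7 of 8 (median -0.21), the sodium pump subunits 3 of 6 (median -0.075) and the other GABA and glycine transporters 2 of 4. Glutamine transporters had 2 of 4 below 0 and the enzymes of glutamate and GABA metabolism 6 of 13. Slc25a22, a mitochondrial glutamate carrier, was the 1 gene with an unadjusted p below 0.05. It stood at 7.53 ± 1.61 CPM in sham and 10.8 ± 2.17 CPM in FPI astrocytes, with a log2 fold change of 0.54 (SE 0.240, 95% interval 0.017 to 1.06), at an adjusted p of 0.999 in edgeR. Next by p came Got1, the cytosolic aspartate aminotransferase, at -0.34 (95% interval -0.74 to 0.067), and Grm5, a metabotropic receptor typical of young astrocytes, at 0.94 (95% interval -0.21 to 2.09), which averaged only 4.37 ± 2.73 CPM in sham and 8.19 ± 2.73 CPM in FPI libraries. Slc25a18, a more abundant mitochondrial glutamate carrier at 188.9 ± 102 CPM in sham astrocytes, gave -0.23 (95% interval -1.10 to 0.64). Microglia markers summed to 32.6 to 63.1 CPM in sham and 51.0 to 210.9 CPM in FPI astrocytes, small beside the 29248 CPM median of sham microglia. All 8 that were tested in astrocytes were above 0, with a median log2 fold change of 3.53. The 1 gene that edgeR called in astrocytes was a microglia marker. The part of microglia RNA in the FPI astrocyte values was not tested.

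Microglia had far less of every member than astrocytes. All 9 were called lower in microglia, where 37.2% of the 15077 tested genes were, with an adjusted p of at most 3.37e-10 in edgeR. DESeq2 also called all 9 lower, against 36.2% of 19578 genes. Glul and Glud1 were the least different, at log2 differences of -1.91 and -2.21, that is 3.75-fold and 4.63-fold lower. Slc1a3 was 21.9-fold and Abat 42.8-fold lower. Slc1a2 was 83.9-fold, Grm3 97.1-fold and Slc38a3 100.4-fold lower, and Slc7a10 and Slc6a11 147.5-fold and 149.9-fold lower.

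Sham microglia held 26.2% of the sham astrocyte level of Glul and 20.1% of that of Glud1. Slc1a3 was at 4.08% and Abat at 1.98%. The remaining 5, Slc1a2 (0.936%), Grm3 (0.749%), Slc38a3 (0.705%), Slc6a11 (0.493%) and Slc7a10 (0.429%), were at or near the level of the astrocyte markers, which ran from 0.431% to 1.05% with a median of 0.646%. In FPI the markers ran from 0.635% to 2.27% (median 1.18%). Glul, Glud1, Slc1a3 and Abat were above every astrocyte marker in sham microglia, and also in FPI microglia, by their means. For Abat the lowest single libraries, at 0.897% in sham and 1.01% in FPI, lay within the range of the markers. Per kb, Glul was at 214 ± 15.7 and Glud1 at 31.0 ± 2.25 CPM per kb in sham microglia, with Slc1a3 at 18.0 ± 1.64 and Slc1a2 at 7.97 ± 2.30, and no neighbours in this run of 4 overlapped. The other 5 genes had means between 0.434 and 1.30 CPM per kb and each overlapped its neighbour in the order, although Grm3 and Slc38a3, the highest and the lowest of them, did not overlap.

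**Figure D3:**
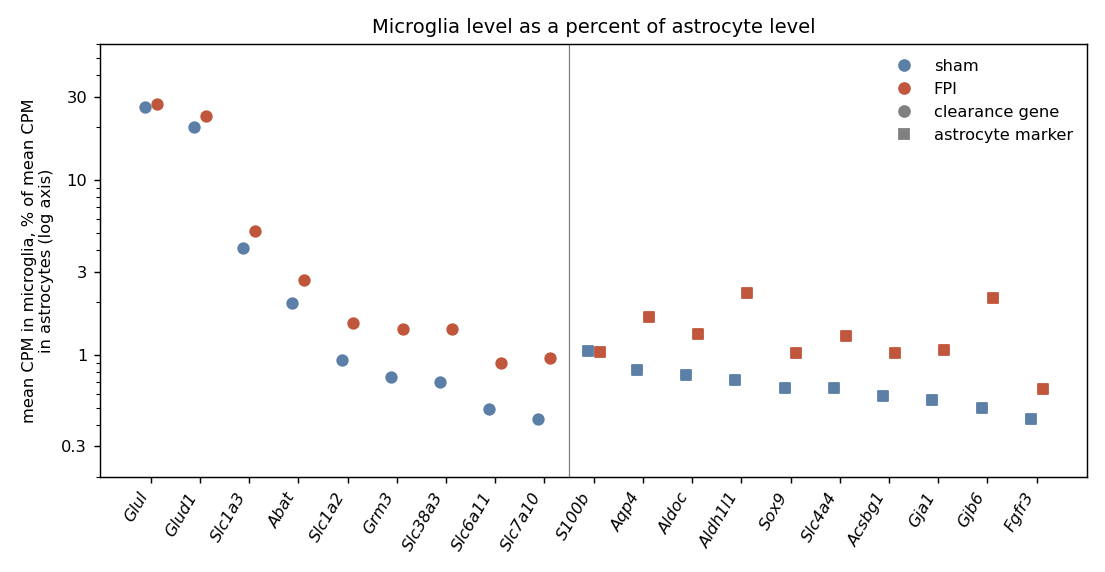
Mean CPM in microglia as a percent of mean CPM in astrocytes of the same condition, on a log axis, for the 9 clearance genes (circles) and 10 astrocyte markers (squares), sham in blue and FPI in red. Glul and Glud1 lie at 20.1% or more and Slc1a3 and Abat above the markers, while the other 5 genes lie at the level of the markers.

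No change was detected in microglia for the 4 genes whose mean there was above the marker level. Glul was at 690.4, 714, 799, 675 and 672 CPM in sham microglia libraries 1 to 5 and 599, 597, 636, 692 and 716 CPM in FPI libraries, a log2 fold change of -0.12 (SE 0.113, 95% interval -0.35 to 0.12). Glud1 was at 136, 143, 131, 124 and 119 CPM in sham and 158, 130.3, 116, 120.1 and 173 CPM in FPI libraries, or 0.12 (SE 0.135, 95% interval -0.17 to 0.40). These 2 enzymes had narrow intervals, which lay within 0.6 of 0 in either direction. Slc1a3 was at 156, 145, 173, 158 and 136 CPM in sham and 162, 176, 134, 145 and 160.2 CPM in FPI libraries, or 0.032 (SE 0.120, 95% interval -0.22 to 0.28), the value nearest to 0. Abat was at 8.87, 5.49, 4.03, 2.16 and 3.22 CPM in sham and 9.45, 11.2, 3.61, 2.16 and 2.31 CPM in FPI libraries, or 0.28 (SE 0.522, 95% interval -0.81 to 1.37). Libraries 1 and 2 were the highest for Abat in both groups, and its counts were low, 14 to 90 reads a library.

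Slc1a2 stood at 131, 81.2, 113, 132 and 65.3 CPM in sham and 264, 214, 147, 106 and 71.3 CPM in FPI microglia. FPI libraries 1 to 3 were above every sham library, and FPI libraries 4 and 5 were within the sham range. The log2 fold change was 0.63 (SE 0.269, 95% interval 0.065 to 1.19). It was not called, at an adjusted p of 0.353 in edgeR's quasi-likelihood test over 12143 genes. The astrocyte markers moved with it: they summed to 59.0, 52.0, 53.9, 76.6 and 42.2 CPM in sham libraries and 128.7, 147.9, 68.8, 47.6 and 56.5 CPM in FPI libraries, and all 9 that were tested were above 0, with a median of 0.60. The part of astrocyte RNA in the Slc1a2 value was not tested. Leaving out FPI libraries 1 and 2, an alternative chosen after seeing the data, gave a log2 fold change of 0.040 (95% interval -0.45 to 0.53). These libraries had the most marker RNA but also the highest Slc1a2, so leaving them out had to lower the estimate. The lower value therefore cannot show where the Slc1a2 RNA came from. By library name the microglia form 2 series, M (3 libraries a group) and J-A (2 a group). Both libraries left out belong to M, and the fits within each series were also chosen after seeing the data. Slc1a2 was 0.93 (95% interval 0.46 to 1.39) within M, where it was called at an adjusted p of 0.0386 in edgeR, and -0.11 (-0.69 to 0.46) within J-A. It was also called without FPI library 5, at 0.80 and an adjusted p of 0.0972 in edgeR.

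The other 4 members were below 13 CPM in every microglia library. Slc6a11 was at 12.9, 3.44, 4.82, 4.43 and 3.03 CPM in sham and 12.4, 7.86, 4.82, 4.47 and 6.53 CPM in FPI microglia. Slc38a3 was at 4.00, 1.10, 2.69, 2.16 and 1.52 CPM in sham and 2.68, 4.99, 3.98, 2.77 and 2.18 CPM in FPI libraries. For Slc6a11 library 1 was the highest in both groups, and for Slc38a3 the lowest was sham library 2 and the highest FPI library 2. Grm3 was at 3.75, 2.93, 3.47, 6.13 and 3.60 CPM in sham and 9.10, 8.24, 5.30, 5.24 and 2.82 CPM in FPI libraries. Slc7a10 was at 1.87, 2.85, 0.112, 2.84 and 0 CPM in sham, with no read in library 5, and 6.54, 3.12, 2.05, 1.08 and 1.28 CPM in FPI libraries. FPI library 1 was the highest of its group for Grm3 and Slc7a10, and groups overlapped for all 4. Their fitted changes ran from 0.35 for Slc6a11 to 0.88 for Slc7a10, with intervals that included 0.

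In microglia 0 of 9 members were called by edgeR, against 2.35% of the 12143 tested genes, or by DESeq2, against 3.25% of 12911. Slc1a2 was the only member with an unadjusted p below 0.05. The median was 0.35 and 8 of 9 were above 0, beside a median of -0.0094 over all tested genes. Of the other pathway genes 29 were tested in microglia, with 13 above 0 and 16 below and a median of -0.040.

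**Figure D4:**
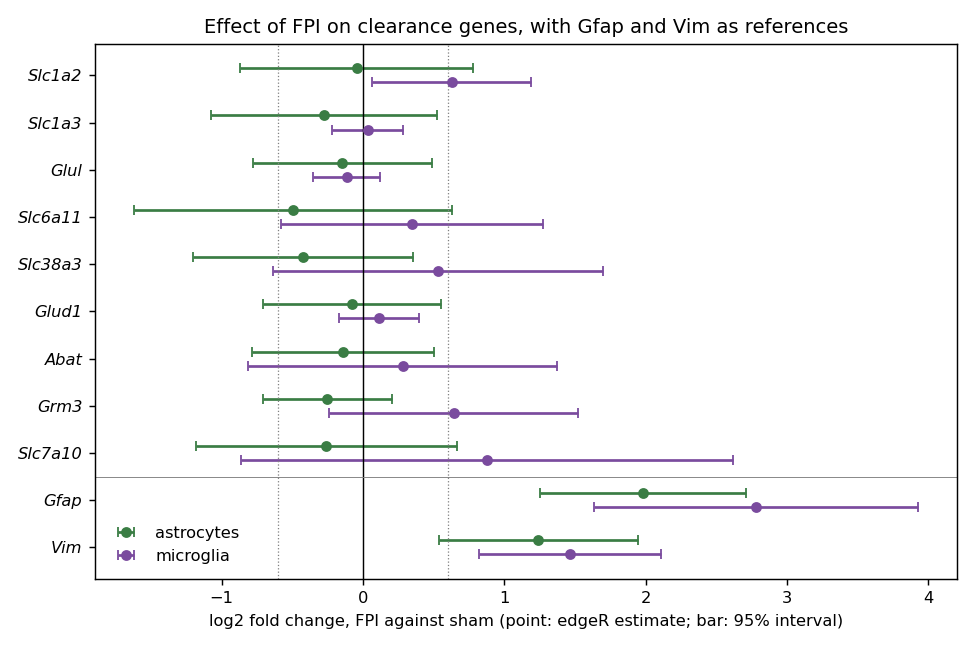
Log2 fold change of FPI against sham in astrocytes (green) and microglia (purple) for the 9 genes, with Gfap and Vim below the line. Points are edgeR estimates with 95% intervals, and dotted lines mark the fold minimum of 0.6. The 9 astrocyte values lie between -0.49 and -0.046 with intervals across 0, and among the 9 microglia intervals that of Slc1a2 alone lies above 0, at 0.065 to 1.19.

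The effect of FPI was not shown to differ between the cell types for any member. In the fit of all 20 libraries the difference, microglia minus astrocytes, ran from 0.048 for Glul to 1.07 for Slc7a10 with a median of 0.70, and 0 of 9 were called, against 0.199% of 15077 genes. DESeq2 also called 0, against 1.22% of 15530 genes. Grm3 was the 1 member with an unadjusted p below 0.05. Its difference was 0.92 (SE 0.362, 95% interval 0.16 to 1.67), and its adjusted p in edgeR was 0.592. Its microglia level was under 10 CPM in all 10 libraries. Over the 10 astrocyte markers the same difference had a median of 0.85, with 9 above 0.

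The genes closest in pattern to each member were sought only outside the lists, by Pearson r of log2 CPM over the 10 astrocyte libraries among 13640 genes. Other members, markers and pathway genes were left out of this search and could not appear as matches. These values are descriptions, since all genes share the libraries, their depth and the gap between replicate numbers. Slc1a2 and Glud1 were both most like Gm2a, a lysosomal lipid activator protein, at r = 0.984 and r = 0.992. Slc1a3 was most like the glycolytic enzyme Eno1 (r = 0.993) and the sphingosine phosphate receptor S1pr1 (r = 0.990), and Abat most like Lrig1 (r = 0.995), the closest match of all. Slc6a11 was closest to the lipid enzymes Soat1 and Acsl3 (r = 0.990 for both), Slc38a3 to Lcat (r = 0.992) and Sema4a (r = 0.987), and Slc7a10 to Acot11 and the glycogen phosphorylase Pygb (r = 0.989 for both). Glul was nearest to Slc29a2 (r = 0.992) and Tecr (r = 0.983). Grm3 was nearest to Galnt16 (r = 0.976) and Serinc1 (r = 0.970), the lowest values among the members. The second matches of Slc1a2, Glud1 and Abat were the potassium channel Kcnj16 (r = 0.984), Ddah1 (r = 0.990) and Fmn2 (r = 0.981).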

How the data were processed

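RNA was sequenced from sorted microglia and astrocytes, 5 libraries for each cell type and condition. The authors used a stranded total RNA kit for very small inputs, aligned reads with HISAT2 2.1.0 to mm10 (GRCm38.p6), and deposited raw counts per gene, whole numbers with no normalization. The submitters' processing notes name bcl2fastq, HISAT2 and featureCounts. The paper's own tests used other, transcript-based estimates, which were not used here. Counts of the 20 single-library files equalled their columns in the combined table. Of 39017 Ensembl identifiers, 37693, with 99.8% of counts, were matched to GENCODE M21 (GRCm38), from which symbols, exon lengths and coordinates came. Promoter sequences were taken from RefSeq (GRCm38.p6).

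Groups came from the labels. For FPI against sham, the libraries of 1 cell type entered each fit, made in R 4.3.3 with edgeR 4.0.16 (filterByExpr, TMM factors, quasi-likelihood test). All 20 libraries were fitted as 4 groups for the cell type contrast and for the difference of effects. P-values were adjusted by Benjamini-Hochberg over all tested genes, and called genes had an adjusted p under 0.1 and a log2 fold change over 0.6 in size, as in the study. Intervals are 95% intervals from the same fit. Levels are CPM on the TMM scale of the 20 libraries. Alternatives were DESeq2 1.42.0, RLE factors, other filters, a robust fit, replicate blocks, other thresholds and leaving out each library. Others were FPI astrocyte libraries 2 and 5 summed as 1 animal, and terms for astrocyte replicates 4 and 5 and for the microglia name series. Libraries were tested as independent, although 3 animals are represented in both cell types. The labels number replicates, and each is an animal by its library name except FPI astrocyte libraries 2 and 5. The fit was tested on simulated data. Totals of 5623349 to 13110857 counts set the precision, with biological coefficients of variation of 0.391 in astrocytes and 0.324 in microglia.

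The members, the 43 other pathway genes and the marker lists were chosen with earlier results of these data known. Named genes are the 9 members, Gfap, Vim, pathway genes called in either cell type, and the 3 pathway genes of smallest p in astrocytes. The 2 genes outside the lists most like each member over astrocyte libraries (log2 of CPM plus 0.5) are also named. Slc25a18 is given beside Slc25a22. Among the pathway genes, 1 that was called in microglia is not reported here. Tables and figures used Python 3.11.15, pandas 2.3.3, numpy 2.4.6 and matplotlib 3.10.9.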

Additional observations from a re-analysis of the deposited data

Results flagged for a closer look

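A pair of values stood far from the rest of their group by Dixon's test among 36 sets of 5 libraries (9 genes in 4 groups), of which chance flags about 1 in 20. Slc6a11 in sham microglia library 1 was at 12.9 CPM, with the other 4 sham libraries at 3.03 to 4.82 CPM. Grm3 in sham microglia library 4 was at 6.13 CPM, with the others at 2.93 to 3.75 CPM. Both are low levels, and neither gene was called in microglia.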

How the results depend on the processing

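In astrocytes no member was called under any alternative. Alternatives moved the number of genes called among all tested from 0 to 53 in astrocytes, 99 to 423 in microglia, 4515 to 12882 between cell types and 1 to 189 for the difference of effects. In microglia 1 member (Slc1a2) was called within the name series M and when every gene with at least 1 count was kept, and 0 to 1 when single libraries were left out, with 1 only without FPI library 5. All 9 stayed called lower in microglia than astrocytes, except that only 7 could be tested with at least 10 counts in every library, and all 7 were called. Signs turned only for values not called. With astrocyte replicates 4 and 5 alone, Slc1a3 was 0.058, Slc38a3 0.13 and Glud1 0.12, and scaled to the astrocyte markers Slc1a2 was 0.062, Glud1 0.082 and Abat 0.012. In microglia without FPI libraries 1 and 2, Slc1a3 was -0.058, Slc6a11 -0.11, Abat -0.82 and Slc7a10 -0.072. Within series J-A, Slc1a2 was -0.11, Glul 0.11, Abat -0.22 and Grm3 -0.24, and within series M, Slc1a3 was -0.020 and Glud1 -0.032. Leaving out single libraries gave -0.37 to 0.095 for Slc1a2, -0.35 to 0.0043 for Glul and -0.29 to 0.040 for Glud1 in astrocytes, -0.0086 to 0.093 for Slc1a3 and -0.093 to 0.64 for Abat in microglia, and -0.16 to 0.22 for the difference of effects of Glul. The cause of these turns was not tested. Same-numbered sham and FPI libraries correlated at -0.0066 to 0.49 in astrocytes (4 of 5 pairs above 0.1, and 3 of 5 sham libraries closest to their own number). In microglia they correlated at -0.076 to 0.083. The main fits did not take the numbers as pairs in either cell type, although the low microglia values give no reason for this in astrocytes. The main astrocyte intervals therefore include the spread between numbers. With the replicate block 0 members were called in either cell type, and the number of genes called in astrocytes went from 1 to 17. The block narrowed the astrocyte intervals of all 9 members, and each still included 0, with -0.27 (-0.57 to 0.024) for Grm3 and -0.39 (-0.78 to 0.0073) for Slc6a11. With FPI astrocyte libraries 2 and 5 summed as 1 animal, edgeR called 0 genes in astrocytes against 1, and members ran from -0.44 (Slc6a11) to -0.017 (Slc1a2) with intervals that included 0. Depth limits Slc6a11, Slc38a3, Abat, Grm3 and Slc7a10 in microglia.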
